A study of Mus musculus with 8 samples.

Results

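The unfolded protein response and the protein folding genes of the endoplasmic reticulum (ER) were examined through 34 genes that a list names by symbol: 6 stress sensors and transcription factors, 11 chaperones and co-chaperones, 4 disulfide isomerases, 7 ER degradation genes and 6 translocon genes. The rule used names only and no measured value, but the list was chosen with earlier results of these data known. In the deposited files, which list 55487 genes each, 35 entries carried these symbols, because Ddit3 has a second Ensembl ID of 105 exon bases that had 0 counts in all libraries and was not used further. All 34 genes passed the filter on low counts.

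The libraries are RNA-seq of splenic conventional dendritic cells (cDC), which present antigen to T cells and fall into the cDC1 and cDC2 subsets. There were 4 groups of 2 libraries, all from untreated C57BL/6 animals: cDC1 carrying Zeb2 -165(d1+2+3), cDC1 of wild type, cDC2 carrying Irf8 +32-/-, and cDC2 of wild type. They are called Zeb2 mutant cDC1, wild-type cDC1, Irf8 mutant cDC2 and wild-type cDC2 below. Both genotype labels name a position relative to a gene, and neither names a change of coding sequence. Each mutant was profiled in 1 subset only, and ages, sort gates and the number of mice behind a library were not given in the sources used here. The libraries of each group are numbered replicate 2 and replicate 3. What these numbers stand for is not stated, so the p-values reflect only how these samples vary, which may be technical.

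As background, the ER membrane holds 3 stress sensors. IRE1, encoded by Ern1, splices the mRNA of the transcription factor XBP1, ATF6 is itself a transcription factor that is released by cleavage, and PERK, encoded by Eif2ak3, slows translation while favouring that of ATF4 and its target CHOP, encoded by Ddit3. XBP1 and ATF6 act on genes for chaperones, disulfide isomerases and ER degradation, in part through a promoter element called the ER stress response element (ERSE). In mouse cDC1, IRE1 is known to be active without added stress, and loss of XBP1 there is known to disturb the ER and to let IRE1 cut other mRNAs. Gene counts do not distinguish the spliced from the unspliced Xbp1 mRNA, so splicing was not measured.

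The promoters were read from a RefSeq table (GRCm38.p6) that gives 250 bases before and 50 bases after a gene's start, in which 28 of the 34 genes matched by symbol. Atf6, Hyou1, Manf, Derl1, Sec61a1 and Ssr2 did not match. ERSE was searched on both strands as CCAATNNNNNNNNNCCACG, where N is any base. It was found in 8 of the 28 genes (28.6%), against 37 of the 27025 genes in the table (0.137%), a count that includes these 8. The stretches around each match are shown because they carry the sequence feature that these 8 genes share; each reads 5′ to 3′ on the gene's own strand, and capitals mark ERSE, which reads CGTGG to ATTGG where it lies on the opposite strand. Hsp90b1 held 2 copies.

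Hsp90b1, distal copy, chr10:86705623-86705671, minus strand: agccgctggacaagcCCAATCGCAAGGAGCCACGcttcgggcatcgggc
Hsp90b1, proximal copy, chr10:86705518-86705566, minus strand: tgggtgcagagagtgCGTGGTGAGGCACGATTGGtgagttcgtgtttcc
Creld2, chr15:88819505-88819553, plus strand: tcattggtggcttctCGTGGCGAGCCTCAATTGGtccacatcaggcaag
Calr, chr8:84847060-84847108, minus strand: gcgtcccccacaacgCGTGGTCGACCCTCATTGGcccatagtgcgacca
Pdia6, chr12:17266476-17266524, plus strand: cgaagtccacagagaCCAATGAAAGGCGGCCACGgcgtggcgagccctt
Dnajc3, chr14:118937812-118937860, plus strand: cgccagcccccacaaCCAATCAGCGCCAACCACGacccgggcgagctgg
Hspa5, chr2:34772020-34772048, plus strand: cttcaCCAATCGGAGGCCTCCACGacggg
Syvn1, chr19:6046517-6046565, plus strand: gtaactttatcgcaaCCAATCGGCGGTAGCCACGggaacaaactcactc
Canx, chr11:50325785-50325833, minus strand: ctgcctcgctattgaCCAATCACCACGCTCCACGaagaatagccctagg

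The matches began between 44 bases (Syvn1) and 212 bases (the distal copy of Hsp90b1) before the gene's start in that table. In the GENCODE M21 annotation, Hspa5 starts earlier, at 34771970, and all 29 bases of its stretch lie in annotated exons. The other ERSE stretches held 0 such bases. The related ERSE-II, searched as ATTGGNCCACG, was found in Herpud1 and Dnajb11 (7.14% of the 28 genes, against 0.0444% of the genes in the table), and in Dnajb11 it lay after the start. Herpud1 is shown because its level overlapped between the subsets while those of the ERSE genes did not, and Pdia5, which had no match to either element, because it held the largest difference between the subsets; capitals mark ERSE-II.

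Herpud1, chr8:94386362-94386402, plus strand: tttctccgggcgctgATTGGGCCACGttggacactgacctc
Pdia5, 100 bases before the start, chr16:35490874-35490973, minus strand: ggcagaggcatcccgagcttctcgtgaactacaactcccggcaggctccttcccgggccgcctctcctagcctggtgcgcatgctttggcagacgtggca

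The core TGACGTGG, an element that XBP1 is known to bind, was in 0 of the 28 windows (0.714% of the genes in the table). The core of an element of ATF4 and its partners, TGATGNAAT, was also in 0 of the 28 (1.08%). These are matches of letters within short windows and not measured binding sites.

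The libraries held 49380686 to 58611821 counts. Values below are CPM (counts scaled to a library of 1000000, with TMM factors), and pairs of values are given for replicate 2 and then replicate 3. The labelled subsets fitted their markers: in wild-type cells 12 of 12 cDC1 markers were higher and 11 of 12 cDC2 markers were lower in cDC1 than in cDC2. Irf8 was at 3709 and 3439 CPM in Zeb2 mutant cDC1, 3263 and 3641 in wild-type cDC1, 146.8 and 120 in Irf8 mutant cDC2 and 126.2 and 103.8 in wild-type cDC2. Zeb2 was at 2.236 and 3.54 CPM, 2.091 and 2.104 CPM, 197.2 and 171.9 CPM, and 200.5 and 200.3 CPM in the same groups. Neither gene passed the test between its own mutant and wild type, edgeR's quasi-likelihood test giving an adjusted p of 0.477 for Zeb2 in cDC1 and 0.914 for Irf8 in cDC2. The wild-type cDC1 pair was the least alike, with an SD of 0.389 for the log2 difference between its replicates against 0.2 to 0.295 in the other groups. That difference followed gene length in this pair (Spearman's rho of -0.395 across 8157 genes, which are not independent replicates). The rho was 0.247 in Zeb2 mutant cDC1, 0.146 in Irf8 mutant cDC2 and -0.00544 in wild-type cDC2.

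The 34 genes together took up a larger share of the RNA of cDC1 than of cDC2, both between the wild-type groups and between the mutant groups, which differ in genotype as well as subset. They held 1.18% and 1.16% of all counts in Zeb2 mutant cDC1, 1.12% and 1.1% in wild-type cDC1, 0.607% and 0.624% in Irf8 mutant cDC2, and 0.616% and 0.618% in wild-type cDC2. All 4 cDC1 libraries lay above all 4 cDC2 libraries. Without Hspa5, the most abundant of them in every cDC1 library, their summed level was 8888 and 8936 CPM in Zeb2 mutant cDC1, 8876 and 8267 in wild-type cDC1, 5362 and 5240 in Irf8 mutant cDC2 and 5402 and 5283 in wild-type cDC2, again without overlap of the subsets. In bulk RNA, more cells of a kind within a sort and more RNA per cell cannot be told apart.

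The difference lay with the folding machinery. Chaperones summed to 5870 and 5772 CPM in Zeb2 mutant cDC1, 5984 and 5472 in wild-type cDC1, 2535 and 2523 in Irf8 mutant cDC2 and 2559 and 2461 in wild-type cDC2. Disulfide isomerases summed to 1733 and 1775, 1688 and 1661, 620.3 and 552.5, and 603.1 and 543.9 CPM in the same groups. The sums of chaperones, isomerases and translocon genes separated the subsets. Those of the 7 ER degradation genes, at 2048 and 2080 CPM in Zeb2 mutant cDC1, 2074 and 1806 in wild-type cDC1, 1868 and 1955 in Irf8 mutant cDC2 and 2080 and 2047 in wild-type cDC2, overlapped. The 6 sensors and factors summed to 568.3 to 651.5 CPM in the cDC1 libraries and 662.7 to 721.9 CPM in the cDC2 libraries, which did not overlap and ran the other way.

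**Figure D1:**
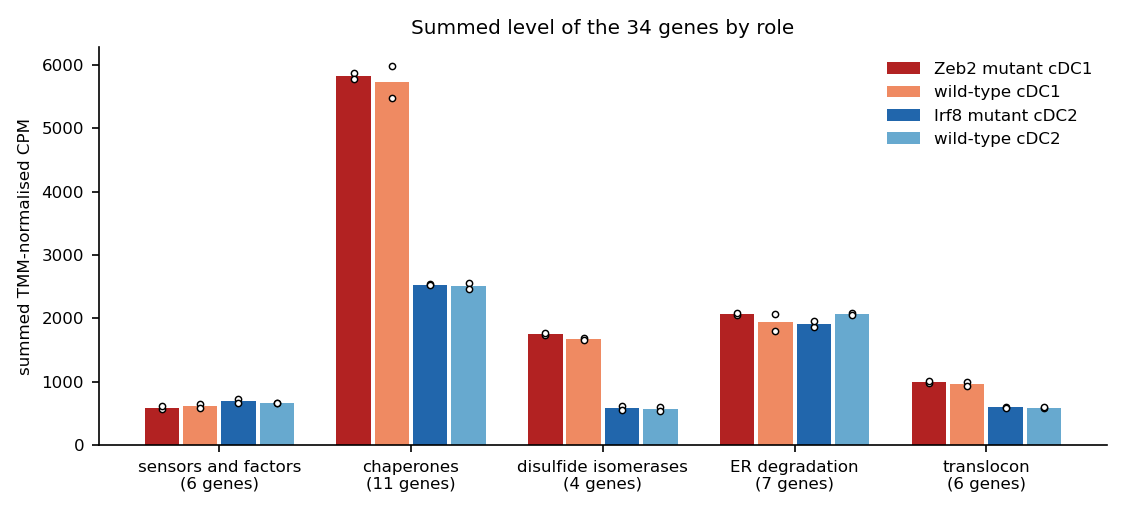
Summed TMM-normalised CPM of the 34 genes by role; bars are group means and points the 2 libraries of a group, with Zeb2 mutant and wild-type cDC1 in reds and Irf8 mutant and wild-type cDC2 in blues. Chaperones stood at 5472 to 5984 CPM in cDC1 libraries and 2461 to 2559 CPM in cDC2 libraries, while the ER degradation sums of the subsets overlapped.

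Per kilobase of exon, which allows levels of different genes to be set side by side, Hspa5 led in cDC1 and Herpud1 in cDC2. Hspa5 was at 546.5 ± 1.89 CPM per kilobase in Zeb2 mutant cDC1, 554.2 ± 56.1 in wild-type cDC1, 239.7 ± 8.94 in Irf8 mutant cDC2 and 249.6 ± 9.66 in wild-type cDC2 (SD, n = 2 each). Herpud1 stood at 419.9 ± 29.0, 443.3 ± 101.3, 408.4 ± 56.4 and 482.6 ± 13.95 CPM per kilobase in those groups. Calr came next and then P4hb in all 4 groups. Pdia5 ranked 7 of 34 in both cDC1 groups, at 149.0 ± 8.85 CPM per kilobase in Zeb2 mutant and 131.8 ± 3.87 in wild-type cDC1, and last in both cDC2 groups, at 2.31 ± 0.0328 in Irf8 mutant and 1.30 ± 0.122 in wild-type cDC2. Ddit3, at 3.76 ± 0.469 and 5.12 ± 0.512 CPM per kilobase, was the lowest of the 34 in Zeb2 mutant and wild-type cDC1. In wild-type cDC1 Hspa5 and Herpud1 did not differ beyond their spread, while Calr and P4hb did in every group.

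**Figure D2:**
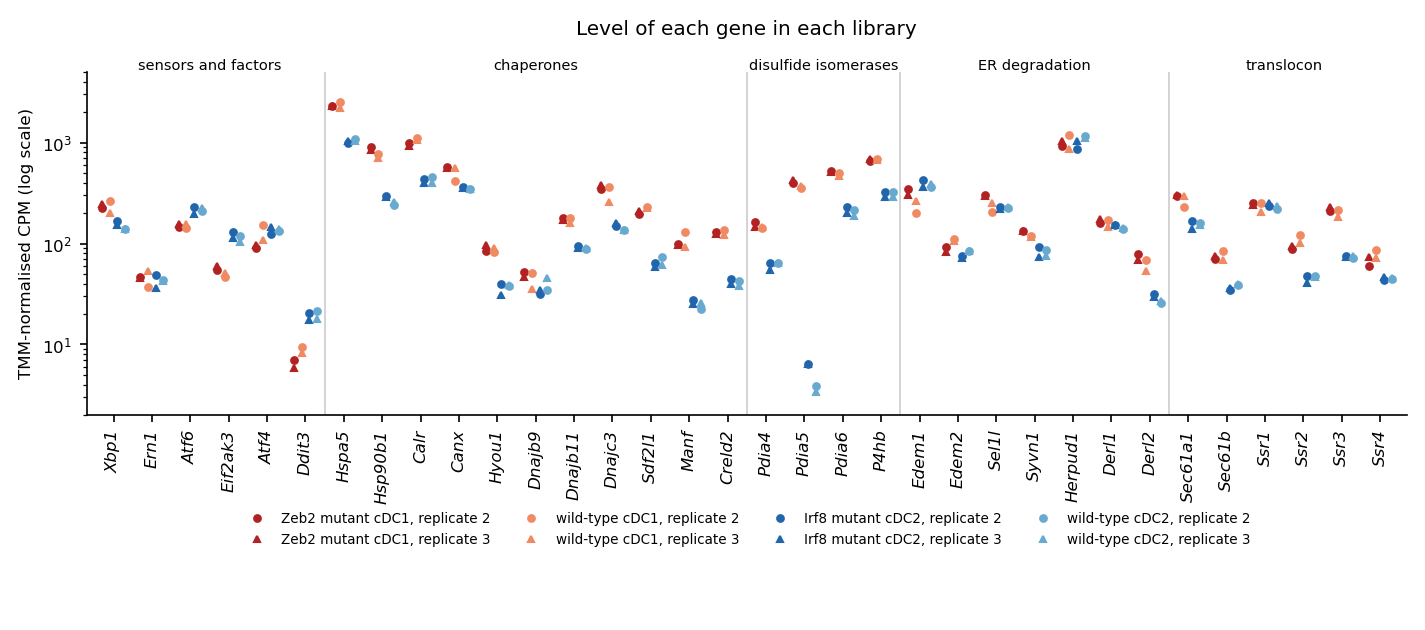
TMM-normalised CPM (log axis) of each gene in each of the 8 libraries, by role; circles are replicate 2 and triangles replicate 3. Red symbols (cDC1) lie above blue ones (cDC2) for most chaperones, isomerases and translocon genes. They lie below them for Atf6, Eif2ak3, Ddit3 and Edem1, and Pdia5 shows the widest gap.

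Wild-type cDC1 were compared with wild-type cDC2 to describe the difference between the subsets. Of the 34 genes 23 were higher in cDC1, 4 were lower and 7 did not pass (edgeR's quasi-likelihood test, Benjamini-Hochberg adjusted p under 0.05 over 20631 genes). Of all tested genes, which were not matched to the 34 by level, 14.2% were higher and 15.9% lower. The median log2 fold change, cDC1 over cDC2, was 0.86 over the 34 genes and 0.03 over all tested genes. By role, 1 of 6 sensors and factors was higher and 3 were lower, 10 of 11 chaperones were higher, 4 of 4 disulfide isomerases were higher, 3 of 7 ER degradation genes were higher and 1 was lower, and 5 of 6 translocon genes were higher.

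Among the sensors and factors, Xbp1 was higher in wild-type cDC1, while Atf6, Eif2ak3 and Ddit3 were lower. Xbp1 (chromosome 11, 5520659 to 5525893, GRCm38), the transcription factor of the IRE1 branch, was at 225.1 and 245.2 CPM in Zeb2 mutant cDC1, 263.7 and 202.3 in wild-type cDC1, 166.8 and 151.4 in Irf8 mutant cDC2 and 139.6 and 140.6 in wild-type cDC2. Every cDC1 library exceeded every cDC2 library, and the wild-type log2 fold change was 0.73 (SE 0.146, edgeR adjusted p = 0.00351). Ern1, its kinase and nuclease, was at 36.86 and 53.17 CPM in wild-type cDC1 and 43.1 and 42.17 CPM in wild-type cDC2. The Ern1 ranges overlapped, with a log2 fold change of 0.08 (SE 0.194, edgeR adjusted p = 0.81).

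Eif2ak3 (chromosome 6, 70844515 to 70905245), the PERK kinase, was at 55.02 and 60.35 CPM in Zeb2 mutant cDC1, 46.28 and 50.52 in wild-type cDC1, 131.1 and 112.9 in Irf8 mutant cDC2 and 118.1 and 103.2 in wild-type cDC2. All cDC1 libraries were below all cDC2 libraries, and the wild-type log2 fold change was -1.19 (SE 0.139, edgeR adjusted p = 0.000104). Ddit3, the CHOP factor that PERK signalling induces, was at 7.001 and 5.864 CPM in Zeb2 mutant cDC1, 9.383 and 8.143 in wild-type cDC1, 20.53 and 17.29 in Irf8 mutant cDC2 and 21.59 and 18.08 in wild-type cDC2. It too was lower in all cDC1 libraries, with a wild-type log2 fold change of -1.18 (SE 0.203, edgeR adjusted p = 0.00146). Of its exon bases 10.9% overlap other gene entries, among them the second Ddit3 ID, and 8.05% of those of Eif2ak3 overlap another gene. Without strand, some reads cannot be assigned between overlapping genes.

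Atf4, the factor between PERK and CHOP, whose output is set mainly by translation, was at 153.3 and 108.4 CPM in wild-type cDC1 and 131.8 and 137.8 CPM in wild-type cDC2. The cDC1 libraries lay on either side of the cDC2 libraries, and the log2 fold change was -0.04 (SE 0.168, edgeR adjusted p = 0.883). Atf6, the third sensor, was at 144.4 and 155.7 CPM in Zeb2 mutant cDC1, 142 and 156.4 in wild-type cDC1, 230.1 and 198 in Irf8 mutant cDC2 and 211.7 and 222.3 in wild-type cDC2. It was lower in every cDC1 library, with a wild-type log2 fold change of -0.54 (SE 0.128, edgeR adjusted p = 0.00923), which was not called in 3 of 14 other settings, among them the removal of the trend with gene length (-0.28, edgeR adjusted p = 0.0903).

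Of the chaperones, Hspa5 (chromosome 2, 34771970 to 34777547), which encodes BiP, the chaperone that also holds the sensors inactive, was at 2305 and 2317 CPM in Zeb2 mutant cDC1, 2511 and 2176 in wild-type cDC1, 986.9 and 1040 in Irf8 mutant cDC2 and 1085 and 1027 in wild-type cDC2. The subsets did not overlap, and Hspa5 was 2.22-fold higher in wild-type cDC1 (log2 fold change 1.15, SE 0.123, edgeR adjusted p = 5.62e-05). Hsp90b1, the ER form of HSP90, was at 908.2 and 839 CPM in Zeb2 mutant cDC1, 775.9 and 703.1 in wild-type cDC1, 292.3 and 291 in Irf8 mutant cDC2 and 241.2 and 255 in wild-type cDC2. Its libraries separated by subset, and it was 2.98-fold higher in wild-type cDC1 (log2 fold change 1.58, SE 0.121, edgeR adjusted p = 5.76e-06), although 15.7% of its exon bases overlap other genes.

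The largest fold among the chaperones was that of Manf, an ER protein that binds BiP and can be secreted. Manf was at 98.9 and 97.2 CPM in Zeb2 mutant cDC1, 130 and 91.74 in wild-type cDC1, 27.81 and 25.33 in Irf8 mutant cDC2 and 22.57 and 25.61 in wild-type cDC2, a 4.60-fold difference in wild-type cells. Of the Manf exon bases, 9.25% overlap other genes. Sdf2l1, a partner of the BiP co-chaperone DNAJB11, was 3.37-fold higher in wild-type cDC1, and Creld2, an ER protein induced by stress, was 3.18-fold higher. Calr and Canx, the lectin chaperones that bind sugar-bearing proteins, differed in size: Calr was 2.55-fold higher, at 1114 and 1056 CPM in wild-type cDC1 and 453.2 and 397.6 CPM in wild-type cDC2, and Canx was 1.41-fold higher, at 411.7 and 560.6 CPM in wild-type cDC1 and 343.6 and 348 CPM in wild-type cDC2. The Canx call was lost in 6 of 14 other settings, and without wild-type cDC1 replicate 3 the log2 fold change was 0.26 (edgeR adjusted p = 0.114), against 0.49.

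Hyou1, a nucleotide exchange factor of BiP, was 2.25-fold higher in wild-type cDC1. The BiP co-chaperone Dnajc3, known as an inhibitor of PERK, was 2.28-fold higher, and Dnajb11 was 1.89-fold higher. Dnajb9, the co-chaperone that restrains IRE1, was the 1 chaperone that did not pass: it was at 51.6 and 35.41 CPM in wild-type cDC1 and 34.99 and 45.21 CPM in wild-type cDC2, and the ranges overlapped. Its log2 fold change was 0.12 (SE 0.196, edgeR adjusted p = 0.711).

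Pdia5 (chromosome 16, 35397312 to 35490873), a protein disulfide isomerase reported in human cells to help activate ATF6, was nearly restricted to cDC1. It was at 395.6 and 430.3 CPM in Zeb2 mutant cDC1, 357.7 and 372.8 in wild-type cDC1, 6.336 and 6.465 in Irf8 mutant cDC2 and 3.837 and 3.357 in wild-type cDC2. In wild-type cells that was a 101.5-fold difference (log2 fold change 6.67, SE 0.158, edgeR adjusted p = 6.9e-09), and 83 of the 20631 tested genes had a larger log2 fold change. The other disulfide isomerases differed far less. Pdia4 was 2.24-fold higher in wild-type cDC1, Pdia6, which is known to limit IRE1 signalling, was 2.43-fold higher, and P4hb, the most abundant isomerase per kilobase here, was 2.22-fold higher.

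ER degradation, the removal of misfolded proteins through the ER membrane, was the mixed group. Derl2, a channel component, was at 79.11 and 68.54 CPM in Zeb2 mutant cDC1, 68.83 and 53.94 in wild-type cDC1, 31.76 and 29.71 in Irf8 mutant cDC2 and 26 and 26.84 in wild-type cDC2. The subsets did not overlap, and it was 2.32-fold higher in wild-type cDC1. Its relative Derl1 was not called, at a log2 fold change of 0.17 (SE 0.123, edgeR adjusted p = 0.347). Syvn1, the ubiquitin ligase HRD1, was 1.44-fold higher in wild-type cDC1 (edgeR adjusted p = 0.0173, but 0.15 without wild-type cDC2 replicate 3), whereas its partner Sel1l was at 205.4 and 249.8 CPM in wild-type cDC1 and 227.2 and 228.7 CPM in wild-type cDC2, an overlap with a log2 fold change of -0.002.

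The mannose-trimming EDEM proteins, which mark misfolded proteins for removal, ran in opposite directions. Edem1 was at 199.5 and 265.9 CPM in wild-type cDC1 and 367 and 385.2 CPM in wild-type cDC2, lower in both cDC1 libraries, with a log2 fold change of -0.69 (SE 0.161, edgeR adjusted p = 0.00814), not called without either wild-type cDC2 library (edgeR adjusted p = 0.0509 and 0.0735). Edem2 was at 110.8 and 106.6 CPM in wild-type cDC1 and 85.12 and 84.6 CPM in wild-type cDC2, with a log2 fold change of 0.36 (SE 0.12, edgeR adjusted p = 0.046), a call that was lost in 11 of 14 other settings. Herpud1, which brings HRD1 complexes together, was at 1201 and 867.1 CPM in wild-type cDC1 and 1149 and 1103 CPM in wild-type cDC2. Those ranges overlapped, at a log2 fold change of -0.12 (SE 0.167, edgeR adjusted p = 0.64).

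In the translocon, through which new proteins enter the ER, the channel subunits Sec61a1 and Sec61b were 1.68-fold and 1.98-fold higher in wild-type cDC1. The Sec61b log2 fold change was 0.985, and 0.475 to 1.133 over the 14 other settings. Of the Sec61a1 exon bases, 8.16% overlap another gene. The 4 subunits of the translocon-associated TRAP complex did not move as a unit. Ssr3 was at 210.9 and 228.5 CPM in Zeb2 mutant cDC1, 215.8 and 183.2 in wild-type cDC1, 74.82 and 72.89 in Irf8 mutant cDC2 and 71.39 and 74.82 in wild-type cDC2, a 2.73-fold difference in wild-type cells without overlap. Ssr2 was 2.38-fold higher (12.8% of its exon bases overlap another gene) and Ssr4 was 1.75-fold higher. Ssr1 was at 253.8 and 206.1 CPM in wild-type cDC1 and 217.8 and 236.3 CPM in wild-type cDC2, with overlap and a log2 fold change of 0.02 (SE 0.134, edgeR adjusted p = 0.94).

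Set beside the promoters above, the 8 genes with ERSE were all called higher in wild-type cDC1, with a median log2 fold change of 1.24. Of the 20 other genes with a promoter entry, 11 were higher and 3 lower, with a median of 0.55, and these included Pdia5, Sdf2l1 and Ssr3. ERSE genes ranged from Canx, at a log2 fold change of 0.49, to Creld2, at 1.67. The split also followed role, since the ERSE genes were chaperones apart from Pdia6 and Syvn1. The 20 others held the sensors and factors Xbp1, Ern1, Eif2ak3, Atf4 and Ddit3. Chaperones and isomerases among these 20 were Sdf2l1 (1.75), Pdia4 (1.16), P4hb (1.15), Dnajb11 (0.92), Dnajb9 (0.12) and Pdia5 (6.67). ERSE and role were therefore not told apart here. Of the genes with ERSE-II, Herpud1 lay at -0.12 and Dnajb11, called higher, at 0.92. These are descriptions of a small set, and no test was made of them.

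**Figure D3:**
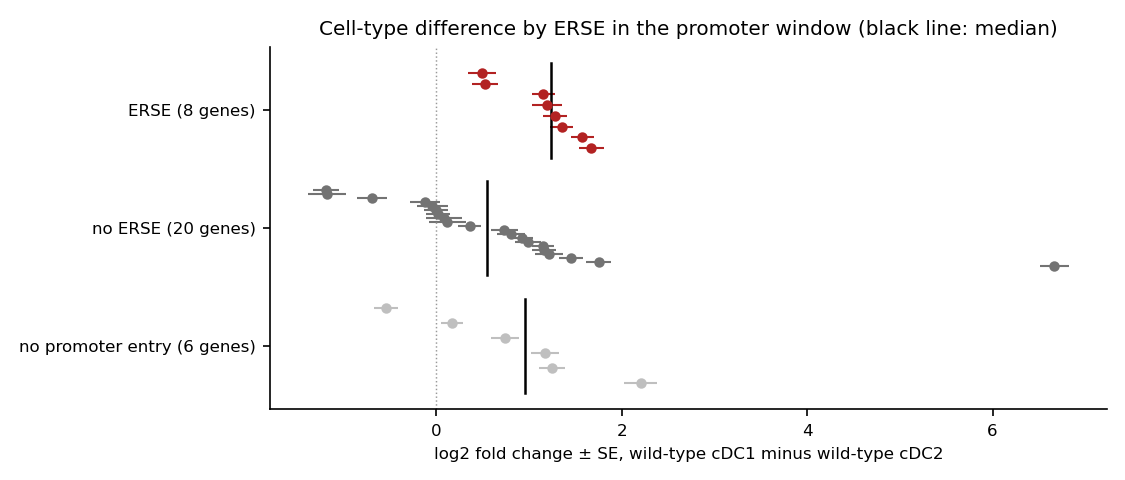
Log2 fold change ± SE of wild-type cDC1 over wild-type cDC2 for each of the 34 genes, split by whether the promoter window holds ERSE; the black line is the median. The 8 genes with ERSE lie between 0.49 and 1.67, and the 20 without range from -1.19 to 6.67 (Pdia5).

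Other cells of the spleen with a large ER were looked for. The 15 plasma cell markers summed to 788.5 and 730.5 CPM in Zeb2 mutant cDC1, 646.3 and 623.8 in wild-type cDC1, 1389 and 1112 in Irf8 mutant cDC2 and 1033 and 1131 in wild-type cDC2, and most of it was Slamf7 in cDC1 libraries, and Slamf7 with Irf4, which is also a cDC2 marker, in cDC2 libraries. The other 13 markers, a split made after seeing the values, summed to 237.9 and 164.6 CPM in Zeb2 mutant cDC1, 145.5 and 143.9 in wild-type cDC1, 562.5 and 212.7 in Irf8 mutant cDC2 and 131 and 225.5 in wild-type cDC2, where the wild-type groups overlapped. Much of the wild-type cDC2 sums came from Prdm1, at 61.36 and 63.95 CPM there and 3.301 and 3.011 CPM in wild-type cDC1. Tnfrsf13b was likewise at 49.72 and 51.26 CPM in wild-type cDC2 and 11.77 and 10.25 CPM in wild-type cDC1. Both were called lower in cDC1, so the overlap of the sums does not describe the remaining markers. Of the 14 tested, 1 was higher (Derl3) and 3 were lower in wild-type cDC1, and the median log2 fold change was 0.45. Igha was at 70.85 and 103.6 CPM in wild-type cDC1 and 0.6001 and 63.79 CPM in wild-type cDC2, and Ighg2c at 13.91 and 0.5474 CPM in wild-type cDC1 and 0.03637 and 0.07105 CPM in wild-type cDC2, without passing the test. Ighg2b ran the other way, at 0.3974 and 0.3592 CPM in wild-type cDC1 and 2.728 and 2.807 CPM in wild-type cDC2, also not called. Ighg1, at 55.91 CPM, and Ighg3, at 54.56 CPM, were highest in Irf8 mutant cDC2 replicate 2. Of the 14 tested markers, 9 had a positive and 5 a negative wild-type log2 fold change. Among the defining genes of plasma cells Sdc1 reached at most 1.733 CPM and Mzb1 at most 0.2924 CPM in any library. Mzb1 was at 0 in both Irf8 mutant libraries, whereas Prdm1 reached 77.46 CPM in them. Jchain was at 10.79 to 41.55 CPM with overlapping groups. The 13 plasmacytoid dendritic cell markers summed to 138.8 to 148.3 CPM in the cDC1 libraries and 294.2 to 365.3 CPM in the cDC2 libraries, with Tcf4 and Lair1 among the most abundant. Of the 12 tested in wild-type cells, 6 were lower in cDC1 and 3 were higher, namely Ccr9 (5.68-fold), Cd300c (2.14-fold) and Bst2 (1.37-fold). The part of other cells in the differences of the 34 genes was not tested.

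The 19 immediate-early and heat shock genes, which respond to handling, also moved with the groups. They summed to 15630 and 13920 CPM in Zeb2 mutant cDC1, 19330 and 23440 in wild-type cDC1, 17100 and 20290 in Irf8 mutant cDC2 and 34410 and 28160 in wild-type cDC2. In wild-type cells 1 was higher and 6 were lower in cDC1. Their part in the differences of the sensors and factors was not tested.

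The comparison of Zeb2 mutant cDC1 with Irf8 mutant cDC2 uses none of the wild-type libraries' values, although the spread was estimated over all 8 libraries. Here 23 of the 34 genes were higher in cDC1 and 4 were lower, against 12.8% and 15% of all tested genes. The median log2 fold change was 0.95 over the 34 genes and -0.02 over all tested genes. Of the genes higher in cDC1, 22 were shared with the wild-type comparison, which is 95.7% of each list, and of the genes lower in cDC1 3 were shared, which is 75% of each. The shared lower genes were Atf6, Eif2ak3 and Ddit3.

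The largest differences were again those of the isomerase and chaperones. Pdia5 was 64.5-fold higher in Zeb2 mutant cDC1 than in Irf8 mutant cDC2 (log2 fold change 6.01, SE 0.152, edgeR adjusted p = 7.45e-09), Manf was 3.69-fold higher and Sdf2l1 was 3.30-fold higher. Hspa5 was 2.28-fold higher, at a log2 fold change of 1.19 (SE 0.123, edgeR adjusted p = 4.52e-05). Xbp1 was 1.48-fold higher (edgeR adjusted p = 0.0153), a call lost in 3 of 14 other settings, each of which left out a mutant library. Eif2ak3 had a log2 fold change of -1.08 (SE 0.139, edgeR adjusted p = 0.000213), and Ddit3 one of -1.56 (SE 0.206, edgeR adjusted p = 0.000262).

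Calls that differed between the comparisons concerned small changes. Atf4 was lower in Zeb2 mutant cDC1, at 90.59 and 97.31 CPM against 124.6 and 147.1 CPM in Irf8 mutant cDC2, with a log2 fold change of -0.53 (SE 0.168, edgeR adjusted p = 0.0387). Sel1l was higher, at 304.8 and 294.8 CPM in Zeb2 mutant cDC1 and 229.5 and 217.8 CPM in Irf8 mutant cDC2 (edgeR adjusted p = 0.0327). The Atf4 call was lost in 7 of 14 other settings and the Sel1l call in 5, in both cases whichever mutant library was left out. With the replicate number as a block the edgeR adjusted p was 0.0602 for Atf4 and 0.0568 for Sel1l. Of the shared genes, Atf6 lost its call in 5 settings and Ssr4 in 2. Edem1 and Edem2 were not called here, though neither overlapped. Edem1 was at 348.1 and 300.4 CPM in Zeb2 mutant cDC1 and 427.5 and 364.6 CPM in Irf8 mutant cDC2. Edem2 was at 91.42 and 82.28 CPM in Zeb2 mutant cDC1 and 74.63 and 71.66 CPM in Irf8 mutant cDC2. A call in 1 comparison only does not show that the comparisons differ; the difference itself is the same contrast as that of the mutant effects tested below. Ern1 again overlapped, with a log2 fold change of 0.12 (SE 0.194, edgeR adjusted p = 0.712).

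**Figure D4:**
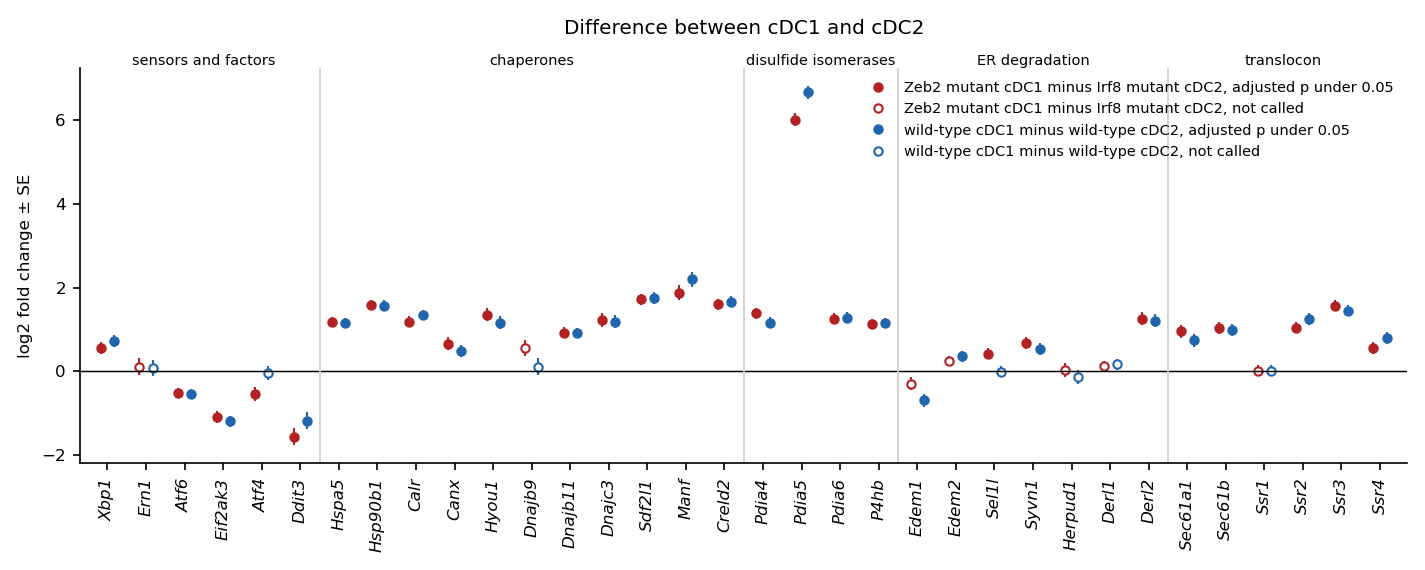
Log2 fold change ± SE between cDC1 and cDC2 for each gene, in the mutants (Zeb2 mutant cDC1 over Irf8 mutant cDC2, red) and in wild type (blue); filled points passed an adjusted p under 0.05. The points of a gene lie close together in most cases, with 23 genes higher and 4 lower in each comparison and Pdia5 at 6.01 and 6.67.

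Zeb2 mutant cDC1 were compared with wild-type cDC1 to see what the Zeb2 genotype changed. Of the 34 genes 0 were higher and 0 were lower (edgeR adjusted p under 0.05), against 0.0145% and 0.0533% of all tested genes. DESeq2 called 0, and 4 of the 34 had an unadjusted p under 0.05 in edgeR (11.8%), as did 10.5% of all tested genes. In both mutant libraries 9 of the 34 genes lay above and 6 below both wild-type libraries, against 19.2% and 19.8% of all tested genes. Hspa5, at a log2 fold change of -0.02 (SE 0.121), Xbp1, at 0.01, Ern1, at 0.03, and Atf6, at 0.01, differed little, and Eif2ak3 stood at 0.25.

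The largest difference was in Edem1, at 348.1 and 300.4 CPM in Zeb2 mutant cDC1 and 199.5 and 265.9 CPM in wild-type cDC1. The mutant libraries lay above, and the log2 fold change was 0.48 (SE 0.16, edgeR adjusted p = 0.352). Atf4 was at 90.59 and 97.31 CPM in Zeb2 mutant cDC1 and 153.3 and 108.4 CPM in wild-type cDC1, a log2 fold change of -0.48 (SE 0.168, edgeR adjusted p = 0.372). Ddit3 had a log2 fold change of -0.45 (SE 0.204, edgeR adjusted p = 0.479) and Edem2 one of -0.32 (SE 0.12, edgeR adjusted p = 0.392). Sel1l, at 304.8 and 294.8 CPM in Zeb2 mutant cDC1 and 205.4 and 249.8 CPM in wild-type cDC1, had the smallest adjusted p of the 34 genes (log2 fold change 0.40, SE 0.129, edgeR adjusted p = 0.331).

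Calls among these genes appeared in 1 other setting only, the fit without wild-type cDC1 replicate 3, which left 1 library in that group. There the log2 fold change was 0.73 for Edem1, 0.58 for Sel1l, 0.49 for Canx and -0.67 for Atf4. With all libraries it was 0.48, 0.40, 0.22 and -0.48. That fit also lacked the spread between the wild-type cDC1 replicates, the least alike pair. The part of this spread in the calls was not tested. Of the handling genes 14 of 19 were below wild type in both mutant libraries. The 14 neutrophil and erythroid markers summed to 94.31 and 129 CPM in Zeb2 mutant cDC1 and 18.2 and 6.364 CPM in wild-type cDC1. The part of these in the values above was not tested.

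Irf8 mutant cDC2 were compared with wild-type cDC2 in the same way. Of the 34 genes 0 were higher and 0 lower (edgeR adjusted p under 0.05), against 0% and 0% of all tested genes, and 1 had an unadjusted p under 0.05, as did 6.36% of all tested genes. In both mutant libraries 8 of the 34 genes lay above and 4 below both wild-type libraries, against 19.6% and 19.7% of all tested genes. Hspa5 had a log2 fold change of -0.06, Ern1 -0.01, Atf6 -0.02, Atf4 0.01, Ddit3 -0.07, Eif2ak3 0.14 and Xbp1 0.18. After Pdia5, the largest differences were those of Dnajb9, at a log2 fold change of -0.27 (SE 0.197), Herpud1, at -0.24 (SE 0.167), Hsp90b1, at 0.23 (SE 0.118), and Derl2, at 0.22 (SE 0.153).

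Pdia5 was the gene with an unadjusted p under 0.05. It was at 6.336 and 6.465 CPM in Irf8 mutant cDC2 and 3.837 and 3.357 CPM in wild-type cDC2, a 1.78-fold difference without overlap (log2 fold change 0.83, SE 0.136, edgeR adjusted p = 0.135). DESeq2 called it (DESeq2 adjusted p = 0.00107), as did edgeR without the filter on low counts (adjusted p = 0.000748). When 1 of the wild-type cDC1 libraries was left out it passed as well, with an edgeR adjusted p of 0.0328 (replicate 2) or 0.0435 (replicate 3), although these libraries enter this comparison only through the shared spread. In the other 10 settings it was not called, with edgeR adjusted p-values of 0.108 to 0.875. These include each one that left out a compared library (0.167 to 0.875), the fit on the compared groups only (0.34) and the replicate block (0.296). Over all 14 other settings the log2 fold change was 0.71 to 0.91.

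Both Pdia5 levels were far below those of cDC1, and the cDC1 markers in the same libraries were mixed. Xcr1 was at 6.278 and 6.159 CPM in Irf8 mutant cDC2 and 3.764 and 3.41 CPM in wild-type cDC2, whereas Clec9a was at 8.069 and 8.035 CPM in Irf8 mutant cDC2 and 10.77 and 10.62 CPM in wild-type cDC2. Over the 12 cDC1 markers 3 were above and 6 below wild type in both mutant libraries, and their sum was 2147 and 1938 CPM in Irf8 mutant cDC2 and 2182 and 1991 CPM in wild-type cDC2. The handling genes were below wild type in 18 of 19 cases in both mutant libraries, with 0 called by edgeR. The neutrophil and erythroid markers summed to 202.5 and 47.62 CPM in Irf8 mutant cDC2 and 11.27 and 37.23 CPM in wild-type cDC2. The part of these in the Pdia5 value was not tested.

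The effects of the mutants were also set against each other, as the Zeb2 mutant effect in cDC1 minus the Irf8 mutant effect in cDC2. Of the 34 genes 0 were higher and 0 lower (edgeR adjusted p under 0.05; 2 at an unadjusted p under 0.05, as were 7.62% of all tested genes, and 0 by DESeq2), against 0% and 0.0194% of all tested genes. The largest differences of effect were those of Pdia5 at -0.65 (SE 0.181, edgeR adjusted p = 0.387), Atf4 at -0.49 (SE 0.238, edgeR adjusted p = 0.679), Dnajb9 at 0.44 (SE 0.278), Sel1l at 0.43 (SE 0.182) and Edem1 at 0.40 (SE 0.226). Without wild-type cDC1 replicate 3, Sel1l passed at 0.64 (edgeR adjusted p = 0.0464).

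**Figure D5:**
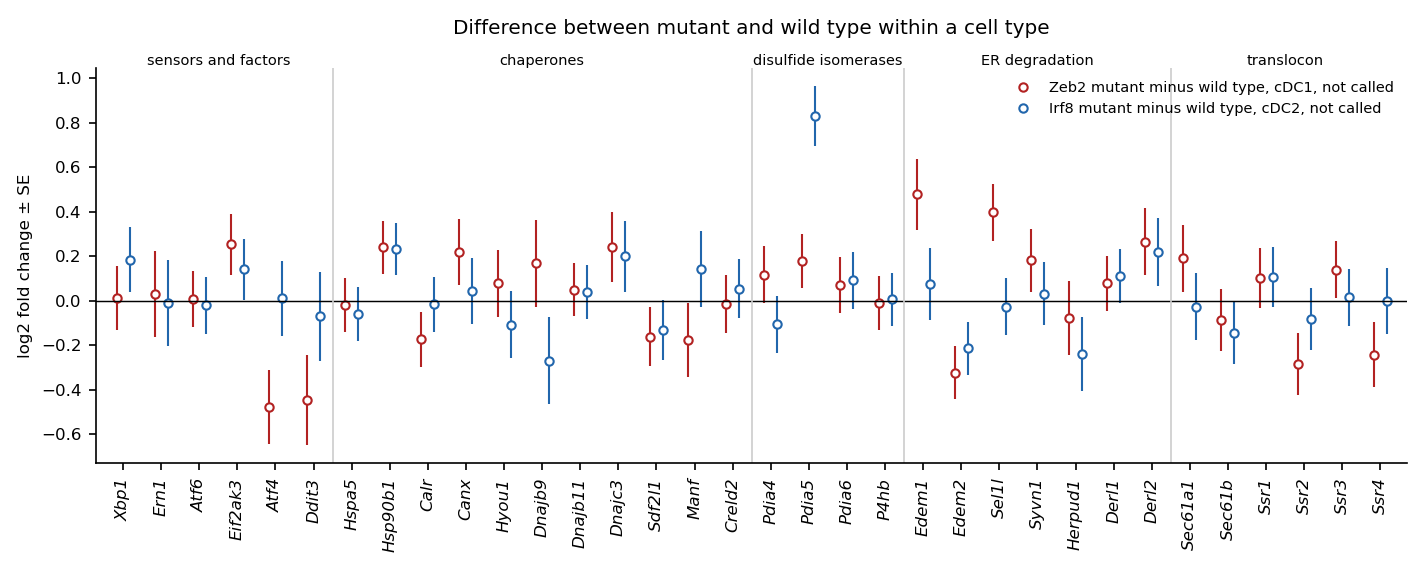
Log2 fold change ± SE between mutant and wild type for each gene, for the Zeb2 mutant in cDC1 (red) and the Irf8 mutant in cDC2 (blue); open points did not pass the test, which holds for all 34 genes in both comparisons. Apart from Pdia5 in Irf8 mutant cDC2 (0.83), the values lie between -0.48 and 0.48.

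Beyond the 34 genes, 179 further genes of the pathway were taken from 8 lists, and 178 were tested. In wild-type cells 62 were higher and 17 lower in cDC1, with a median log2 fold change of 0.27, to be read against the 14.2% higher and 15.9% lower of all tested genes. In Zeb2 mutant cDC1 over Irf8 mutant cDC2, 59 were higher and 16 lower, against 12.8% and 15%. In the Zeb2 mutant, the Irf8 mutant and the difference of their effects, 0 were called by edgeR.

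Of 34 tested folding and disulfide genes outside the members 15 were higher (44.1%) and 1 was lower in wild-type cDC1, with a median log2 fold change of 0.38, against 1.19 for the 11 chaperones above. Pdia3, the isomerase that also serves in loading MHC class I, was at 1555 and 1470 CPM in Zeb2 mutant cDC1, 1457 and 1300 in wild-type cDC1, 428.8 and 407.2 in Irf8 mutant cDC2 and 394 and 396.1 in wild-type cDC2, which is 3.49-fold in wild-type cells without overlap. Fkbp2 and Ppib, prolyl isomerases of the ER, were 3.22-fold and 3.09-fold higher, Txndc5 was 2.74-fold higher, and Tmx4, a membrane-bound thioredoxin-like protein, was lower (log2 fold change -0.88).

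Of 29 translocon, signal peptidase and glycosylation genes 19 were higher (65.5%) and 1 was lower in wild-type cDC1. Sec61g, the third channel subunit, was 4.40-fold higher, the oligosaccharyltransferase subunits Rpn1 and Tusc3 were 2.66-fold and 2.50-fold higher, the signal peptidase subunit Sec11c was 2.36-fold higher, and the catalytic subunit Stt3b was lower (log2 fold change -0.56). Of 28 ER-to-Golgi transport genes 11 were higher (39.3%) and 1 was lower. The coat subunits differed, Sec24d being 3.83-fold higher and Sec24b lower (log2 fold change -0.59), and Kdelr2, which returns chaperones to the ER, was 2.15-fold higher.

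Of 24 ER degradation genes outside the 34, 5 were higher (20.8%) and 2 were lower (8.33%), shares near those of all tested genes. Selenos was 3.37-fold higher in wild-type cDC1, while Edem3 (log2 fold change -0.997) and the ubiquitin-conjugating enzyme Ube2j1 (-0.71) were lower. Of 16 further sensors and regulators 2 were higher and 2 lower (12.5% each), also near those shares. Rtcb, the ligase that joins spliced Xbp1 mRNA, was 1.93-fold higher, and Traf2, an adaptor of IRE1, was lower, at 42.45 and 36.1 CPM in Zeb2 mutant cDC1, 50.46 and 42.94 in wild-type cDC1, 86.59 and 81.82 in Irf8 mutant cDC2 and 99.09 and 83.36 in wild-type cDC2.

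Of 29 tested targets of ATF4 and CHOP 6 were higher (20.7%) and 8 lower (27.6%) in wild-type cDC1. Slc7a11, the cystine transporter, was at 1.806 and 2.323 CPM in Zeb2 mutant cDC1, 2.471 and 2.001 in wild-type cDC1, 60.34 and 35.2 in Irf8 mutant cDC2 and 28.81 and 29.77 in wild-type cDC2. The subsets did not overlap (wild-type log2 fold change -3.71, SE 0.279, edgeR adjusted p = 5.05e-06). Ddit4 (-4.27), Nupr1 (-4.34) and the transcription factor Cebpb (-3.09) were also lower, whereas Psat1, an enzyme of serine synthesis, was 2.39-fold higher and Ero1l, the oxidase that supplies disulfide bonds, 2.17-fold higher.

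Of 9 genes of the eIF2 kinases and phosphatases 3 were higher (33.3%) and 1 was lower (11.1%). Eif2s1, which encodes the subunit that PERK phosphorylates, was 2.27-fold higher in wild-type cDC1, and Ppp1r15a, the stress-induced phosphatase subunit, had a log2 fold change of -0.49 (SE 0.128, edgeR adjusted p = 0.0143). Of 10 mRNAs known as targets of cleavage by IRE1, 2 were higher (20%) and 1 was lower (10%) in wild-type cDC1, again near the shares of all tested genes. Tapbp, which encodes tapasin of the MHC class I loading complex, was at 753 and 723.9 CPM in Zeb2 mutant cDC1, 751.4 and 741.7 in wild-type cDC1, 480.4 and 437.4 in Irf8 mutant cDC2 and 490.4 and 473.4 in wild-type cDC2, which is 1.55-fold in wild-type cells without overlap. Erp44, a thiol protein of the early secretory pathway, was 2.40-fold higher, and Hgsnat, a lysosomal enzyme, was lower (log2 fold change -0.93).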

How the data were processed

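RNA came from about 100000 sorted cells per sample, libraries were made from 10 ng of RNA with the SMARTer Ultra Low kit, which does not mark strand, and paired reads of 150 bases were sequenced, per the labels' protocols. The submitters' processing notes name STAR, Salmon, featureCounts of Subread and bcl2fastq as the authors' tools, and GRCm38 (mm10) as build. How reads shared between genes were counted is not given in the sources used here. The count column that the authors deposited holds whole reads for each gene. Their deposited CPM is the count over the column total, and the deposited FPKM is that CPM per kilobase of exon; both were checked on the values and not used in tests.

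Counts were fitted with edgeR 4.0.16 in R 4.3.3: filterByExpr (20631 genes), TMM scaling, and a robust quasi-likelihood fit with 1 coefficient per group over 8 libraries (4 residual degrees of freedom). A call is an adjusted p (Benjamini-Hochberg, all tested genes) under 0.05. SE was derived from the log2 fold change and the root of its F statistic, and folds are ratios of mean TMM-scaled CPM. The members, the other lists and the tests were chosen with earlier results of these data known. Named members were those called, the 5 with the largest differences where fewer than 5 were called, and Xbp1, Ern1, Atf6, Eif2ak3, Atf4, Ddit3 and Hspa5; other pathway genes were the 4 largest called per list and direction at 5 CPM or more, of which the text gives examples. Symbols came from GENCODE M21 (55227 of 55487 IDs), promoters from RefSeq. DESeq2 1.42.0 was an alternative. Simulated counts with 200 changed genes served as a check of the model. Depth was similar in all libraries, and 2 libraries per group limit the precision.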

Additional observations from a re-analysis of the deposited data

How the results depend on the processing

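The 14 other settings reversed the direction of 0 called values, and 22 of the 27 called members kept their call in all of them, in the wild-type and in the mutant comparison of subsets. In wild type Atf6, Canx, Edem1, Edem2 and Syvn1 were lost in some setting, and in the mutants Atf4, Atf6, Sel1l, Ssr4 and Xbp1. Leaving out 1 library at a time gave 20 to 23 higher and 2 to 4 lower in wild type, and 20 to 25 higher and 2 to 4 lower in the mutants. For the Zeb2 mutant it gave 0 to 3 higher and 0 to 1 lower, for the Irf8 mutant 0 to 1 higher, and for the difference of effects 0 to 1 higher; the cause was not tested. Without the filter on low counts and with DESeq2, 1 member (Pdia5) was higher in the Irf8 mutant. Removing the trend with gene length moved the median of all tested genes in the wild-type comparison to -0.08, against 0.03. Over all genes, the Zeb2 mutant comparison had 3 higher and 11 lower, but 258 and 219 without the filter and 152 and 135 with DESeq2, and the Irf8 mutant comparison had 0 and 0, but 125 and 74, and 75 and 75. Samples sharing a replicate number did not deviate together (correlations of -0.222 to 0.157), and with the number as a replicate block 22 members were higher and 4 lower in wild type, 22 and 3 in the mutants, and 0 in the other comparisons. The search for ERSE in the 250 bases before the start alone gave 28.6% of the genes again. With 2 libraries per group, single calls near the threshold are the least certain.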
